A study of Mus musculus with 7 samples.

Results

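Cirbp and Rbm3, the genes of the cold-inducible RNA-binding proteins, were described in mouse liver around the clock. Their probe sets were found by gene symbol in the platform annotation, which gave 1 probe set for Cirbp and 3 for Rbm3, or 4 of 35556 probe sets on the array. All 4 passed the expression minimum and were tested, and no probe set that carries several symbols named either gene. The 7 groups were time points, 1 every 4 h beginning with ZT02 (the others are ZT06, ZT10, ZT14 and ZT18, then ZT22, and last ZT26), where ZT0 is lights on, ZT12 is lights off and ZT26 is the clock hour of ZT02 on the following cycle. Each was measured on 1 Affymetrix Mouse Gene 1.0 ST array, hybridised with equal parts of liver RNA from 5 mice. All animals were C57/BL6 males, which the labels give as 9 to 11 weeks old when housing began, kept with 12 h of light and 12 h of darkness. They first ate at any hour for 2 weeks and then had food only between ZT12 and ZT24 for 7 days. Darkness and food access therefore coincided and cannot be told apart in any value below. The pools average over mice and each time point rests on 1 array, so that p-values do not measure the spread between animals. Those for a rhythm set a fitted 24-h curve against the scatter of these 7 pools around it. A profile of another shape can therefore lie far from flat and still have a high p. P-values for dark against light compare the means of the pools taken in each phase.

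Array medians lay between 6.37 and 6.40 in log2, and each array correlated with the other arrays at a mean r of 0.991 to 0.993. Hepatocyte markers were abundant, as the label liver implies. Of 10 markers 9 were measured, among them Alb and Apoa1 with mean signals of 16660 and 15190 units. The summed signal of the 9, in which the most abundant weigh most, varied 1.05-fold between arrays. Among them Hnf4a varied most, by 1.51-fold. Markers of Kupffer cells, the resident liver macrophages, did vary over the day. Of their 12 markers 11 were tested and 6 were called rhythmic by the test described below, against 4.54% of all tested genes (Lyz2, Vsig4, C1qb, Adgre1, Clec4f and Csf1r), none was at 0, and their summed signal was lowest at ZT10 (6013 units) and highest at ZT26 (9390 units). Of the endothelial and stellate cell markers, 0 of 8 and 1 of 7 (Pdgfrb) were called. An unadjusted p under 0.05 (limma) was found for 2 and 6 of them, as for 2866 of all 10966 tested genes. Their summed signals were also lowest at ZT10 (5826.5 and 6714 units), and highest at ZT22 (7500 and 8090 units). Of cholangiocyte, lymphocyte and erythroid markers 1, 2 and 1 passed the expression minimum and none was called. The part of these other cell types in the values of Cirbp and Rbm3 was not tested.

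CIRBP and RBM3 are small, closely related proteins with an RNA recognition motif and a glycine-rich tail. Both are known for induction by mild cooling in cultured mammalian cells, in contrast to heat shock proteins, which are induced by warming and proteotoxic stress. They bind mRNAs and affect their stability, translation and polyadenylation, and in mouse fibroblasts CIRBP has been reported to bind the mRNA of the clock gene Clock. Body temperature of mice follows a daily course with higher values in the active, dark phase, but the labels of these samples give no temperature.

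Cirbp lies on chromosome 10 at 80165990 to 80172786 in the RefSeq annotation of GRCm38.p6, and Rbm3 on chromosome X at 8138975 to 8145880. The Cirbp promoter is shown because an element reported to respond to mild cold, TCCCCGCC, was found in it. Of the RefSeq promoter windows, which hold 250 bases before and 50 after an annotated start, 2 belong to Cirbp. One of them held the element on the strand of the gene, beginning 247 bases upstream of the start, as the capitals mark in its upstream bases, chr10:80167589-80167838 (GRCm38.p6, plus strand).
Cirbp promoter: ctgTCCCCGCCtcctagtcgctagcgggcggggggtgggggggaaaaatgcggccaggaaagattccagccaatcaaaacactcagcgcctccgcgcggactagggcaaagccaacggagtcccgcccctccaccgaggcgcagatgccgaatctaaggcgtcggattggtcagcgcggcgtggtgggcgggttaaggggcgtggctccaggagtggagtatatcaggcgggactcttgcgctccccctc
The same letters, searched on both strands, occurred in 5.38% of 32851 promoter windows. GAANNTTC, a pair of heat shock units, occurred in 7.86% of all windows, the E-box CACGTG in 7.15% and the D-box TTATGTAA in 0.938%. None of these 3 was in either Cirbp window, which says only that the letters are not in these bases. A match is a description of the sequence and not evidence of a bound site.

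Cirbp mRNA was at its lowest on the 2 arrays of the early and middle night. The signal of its probe set (10364712) was 291 units at ZT02, 333 at ZT06, 338 at ZT10, 183 at ZT14, 187 at ZT18, 291 at ZT22 and 339 at ZT26. In log2 these were 8.18, 8.38, 8.40, 7.52, 7.54, 8.18 and 8.41. The profile had the shape of a plateau through the light phase and a well in the dark phase, with the highest array 1.85-fold above the lowest. Ordered by level, ZT26, ZT10, ZT06, ZT02 and ZT22 followed each other with gaps no larger than the 0.22 that separated the arrays of the same clock hour, ZT26 and ZT02. ZT18 lay 0.64 below ZT22, a gap beyond that repeat difference, and ZT14 lay 0.02 below ZT18. The values at ZT02 and ZT22 were identical in the deposited table, as they were for 913 of the 12076 tested probe sets. Identical values on some pair of arrays were found for 5768 of the tested probe sets.

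**Figure D1:**
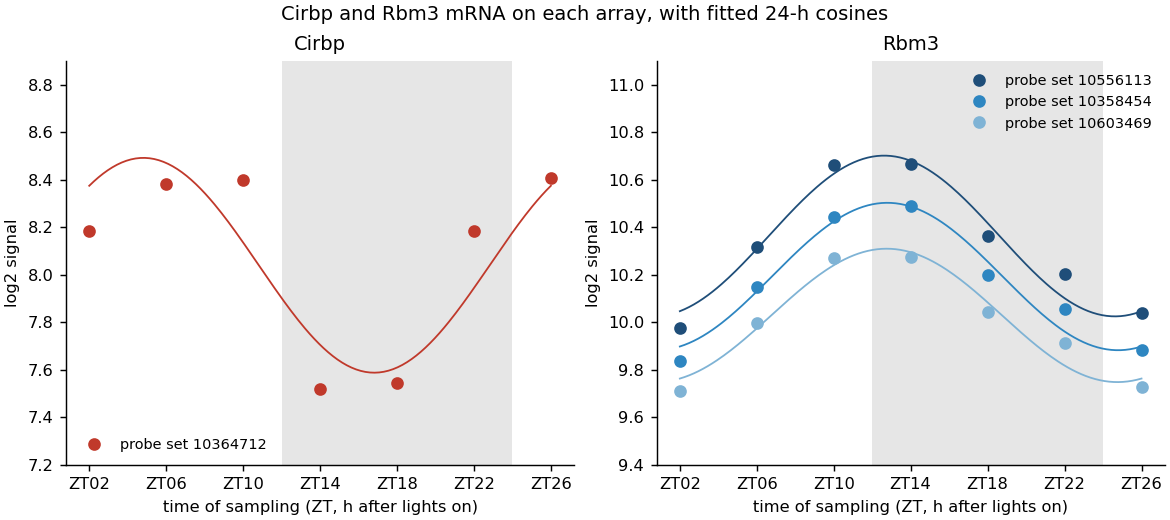
Log2 signal (vertical axes) of the Cirbp probe set and the 3 Rbm3 probe sets at each time of sampling (horizontal axes, ZT in h), 1 pool per point, with the fitted 24-h cosines as lines and the dark phase in grey; the vertical axes do not start at 0. Cirbp is lowest at ZT14 and ZT18 (7.52 and 7.54), whereas all Rbm3 probe sets are highest at ZT10 and ZT14 and lowest at ZT02.

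The differences between neighbouring arrays were large for Cirbp. From ZT10 to ZT14, when lights went off and food became available, its log2 signal differed by -0.88, and 72 of 12076 tested probe sets, itself included, differed by as much or more in that direction. From ZT18 to ZT22 it differed by 0.64, and 34 probe sets, itself included, differed by as much or more in that direction. The median absolute difference of all tested probe sets over these steps was 0.11 and 0.08. From ZT14 to ZT18 the difference was 0.02, smaller than the median of all probe sets (0.10). These steps each rest on 2 arrays and were not tested.

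A cosine with a period of 24 h, fitted to all probe sets with limma, gave Cirbp an amplitude (mean to peak) of 0.45 ± 0.10 (SE) in log2, a peak at ZT4.82 ± 0.86 (SE, h) and a fitted peak 1.87-fold above the trough. Calls of a rhythm required limma's moderated F-test to give an adjusted p under 0.05, after Benjamini-Hochberg adjustment over 12076 probe sets. Of these, 540 (4.47%) were called, and 3100 had an unadjusted p under 0.05. Cirbp was not among the 540, with an adjusted p of 0.0882 (unadjusted p = 0.00933, limma), although its amplitude was larger than that of 96.8% of the tested probe sets. The cosine explained 77.1% of the variance of its 7 values, and an exact permutation test over all 5040 orders of the arrays gave p = 0.0603. Cirbp was not called under any of the alternative settings, in which its adjusted p was 0.0503 at the lowest, with a 12-h term added to the curve.

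Rbm3 mRNA rose and fell smoothly, with its maximum around lights off. The probe set with the highest mean (10556113) had 1007 units at ZT02, 1275 at ZT06, 1622 at ZT10, 1625 at ZT14, 1315 at ZT18, 1180 at ZT22 and 1052 at ZT26. In log2 these were 9.98, 10.32, 10.66, 10.67, 10.36, 10.20 and 10.04. ZT10 and ZT14 were the high arrays and ZT02 and ZT26 the low ones. The Kupffer cell markers had their lowest sum at ZT10 and their highest at ZT26. The endothelial and stellate cell markers also had their lowest sums at ZT10, and their highest at ZT22. The part of these cell types in the Rbm3 profile was not tested. In the order of levels, ZT14 and ZT10 differed by less than the 0.06 between ZT26 and ZT02, and so did ZT18 and ZT06, although in the other 2 probe sets the gap between ZT18 and ZT06 (0.049 and 0.045) was beyond their own repeat difference (0.0486 and 0.018). The gaps between ZT10 and ZT18 (0.30), ZT06 and ZT22 (0.11) and ZT22 and ZT26 (0.16) were beyond it.

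The fitted amplitude of this Rbm3 probe set was 0.34 ± 0.04 (SE) in log2, with a peak at ZT12.6 ± 0.47 (SE, h) and a fitted peak 1.60-fold above the trough. It was called rhythmic with an adjusted p of 0.0243 in limma's F-test, and the cosine explained 95.4% of its variance. The exact permutation test over the order of the arrays gave p = 0.0103, where the smallest possible value was 0.000794. The amplitude was larger than that of 93.6% of all tested probe sets but ordinary among the called ones, of which 323 of 540 had one as large. Of the 540, 115 peaked within 2 h of it, itself and the other Rbm3 probe sets included. Within 2 h of the fitted peak of Cirbp, which is not among the 540, there were 65. With so few arrays the call depended on single ones. Leaving out ZT02 gave an adjusted p of 0.0752 and leaving out ZT06 one of 0.0558. The value was 0.0723 if ZT10 was left out, 0.0962 for ZT14 and 0.0804 for ZT26, and the call held without ZT18 or ZT22. It was also lost under 5 other settings, with adjusted p of 0.0540 to 0.196. Over the 7 fits with a single array left out, the amplitude stayed between 0.32 and 0.37 and the peak between ZT12.2 and ZT13.0.

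The other Rbm3 probe sets followed the same course. Probe set 10358454 had log2 signals of 9.84, 10.15, 10.44, 10.49, 10.20, 10.06 and 9.88 from ZT02 to ZT26, and probe set 10603469 had 9.71, 9.998, 10.27, 10.27, 10.04, 9.91 and 9.73. Both were highest at ZT14 and lowest at ZT02, as the first was. Their amplitudes were 0.31 ± 0.04 and 0.28 ± 0.03 (SE), their peaks ZT12.8 ± 0.49 and ZT12.8 ± 0.53 (SE, h), and both were called, with adjusted p of 0.0250 and 0.0286 in limma. Across the 7 arrays the pairwise correlation of the 3 probe sets was 0.997 to 0.998. The array-by-array log2 difference between the first and the second stayed between 0.14 and 0.22, and between the first and the third between 0.26 and 0.39. The mean of the 3 probe sets, at 9.84, 10.15, 10.46, 10.48, 10.20, 10.06 and 9.88 from ZT02 to ZT26, had an amplitude of 0.31 and a peak at ZT12.7 (adjusted p = 0.0253, limma). These are not independent measurements, since the platform annotation gives all 3 the same 12 transcript accessions and each array serves all of them.

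RefSeq also annotates a pseudogene, Rbm3-ps, on chromosome 1 (150264926 to 150266073, GRCm38.p6), and a long non-coding RNA, Rbm3os, on chromosome X at 8145427 to 8147964, which overlaps Rbm3 by 454 bases. Probe positions were not used here, so that signal from a near-identical copy cannot be separated in the Rbm3 probe sets. Rbm3os has its own probe set, with a mean of 53.4 units, below the minimum for testing. Its log2 signals were 5.83, 6.03, 5.79, 5.70, 5.58, 5.65 and 5.53 from ZT02 to ZT26, highest at ZT06 and lowest at ZT26, an order other than that of Rbm3.

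The profiles of Cirbp and Rbm3 differed in course over the 7 arrays. The log2 signal of Cirbp minus that of Rbm3 was -1.79 at ZT02, -1.94 at ZT06, -2.26 at ZT10, -3.15 at ZT14, -2.82 at ZT18, -2.02 at ZT22 and -1.63 at ZT26. Only the course of this difference can be read, as the signals of different probe sets do not share a scale. It was lowest at ZT14 and highest at ZT26. A cosine explained 93.3% of the variance of this difference, with an amplitude of 0.68 ± 0.09 (SE) and a peak at ZT3.05 ± 0.57 (SE, h). The exact permutation test gave p = 0.00238. It asks whether the difference follows a 24-h curve, which rhythms of unequal size or a flat Cirbp could also give. It is therefore no test of a difference in peak time. With the mean of the Rbm3 probe sets in place of the main one, p was the same and the amplitude 0.66. Leaving out any 1 array kept p between 0.00278 and 0.0222. The fitted peak of Cirbp came 7.80 ± 0.98 h (SE) before that of Rbm3, if the errors of both fits are taken as independent. Cirbp was not called rhythmic, and with single arrays left out its fitted peak moved between ZT3.32 and ZT5.67. The correlation of the profiles over the 7 arrays was -0.38. At ZT10 both genes were near their maximum. At ZT14 Rbm3 was still there, with a difference of 0.003 from ZT10, while Cirbp was at its minimum.

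**Figure D2:**
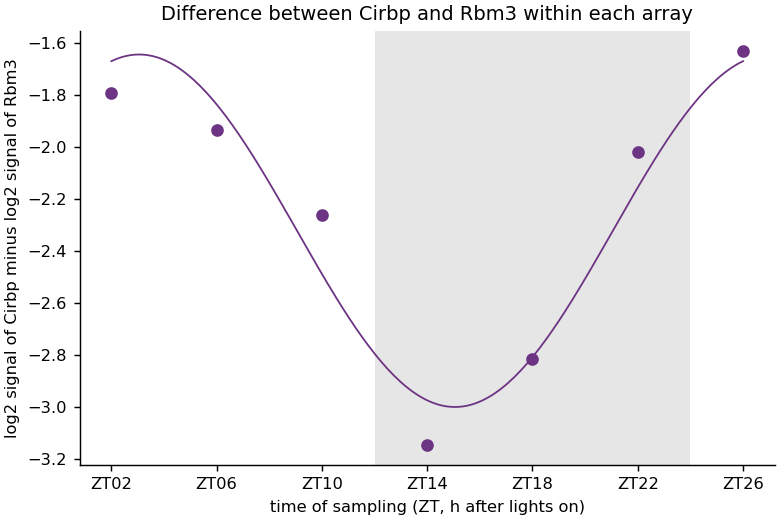
Log2 signal of Cirbp minus log2 signal of Rbm3 (probe set 10556113) within each array (vertical axis, not starting at 0) against the time of sampling (horizontal axis, ZT in h), with the fitted 24-h cosine as a line and the dark phase in grey. The difference is lowest at ZT14 (-3.15) and highest at ZT26 (-1.63).

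The 3 arrays taken in the dark were also set against the 4 taken in the light, with time points standing in for replicates. Cirbp averaged 7.75 ± 0.38 in the dark and 8.34 ± 0.11 in the light (SD of log2 signal, n = 3 and 4 arrays). The dark and light values touched without crossing, since ZT22 in the dark equalled ZT02 in the light. The difference was -0.59 ± 0.17 (SE), with an adjusted p of 0.403 in limma (unadjusted p = 0.00904), and an exact permutation test over the 35 arrangements gave p = 0.0571, two-sided, against a smallest possible value of 0.0286. Rbm3 averaged 10.41 ± 0.23 in the dark and 10.25 ± 0.31 in the light, and the groups overlapped. Its difference was 0.16 ± 0.19 (SE; adjusted p = 0.770, limma), and the other Rbm3 probe sets gave 0.17 and 0.15. Of 12076 probe sets 0 (0%) were called in this comparison by limma, and 1357 had an unadjusted p under 0.05. With 1 array left out the Cirbp difference lay between -0.48 (adjusted p = 0.692, limma), without ZT14, and -0.81 (0.0759), without ZT22, and the adjusted p reached 0.774, without ZT18. The Rbm3 difference (probe set 10556113) was 0.07 without ZT02, 0.30 without ZT10, 0.03 without ZT14, 0.27 without ZT22 and 0.09 without ZT26.

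At the repeated clock hour Cirbp was 0.22 higher at ZT26 than at ZT02, a larger difference than in 84.7% of tested probe sets, whose median absolute difference was 0.09. The Rbm3 probe sets were 0.06, 0.05 and 0.02 higher at ZT26 than at ZT02, all below that median.

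**Figure D3:**
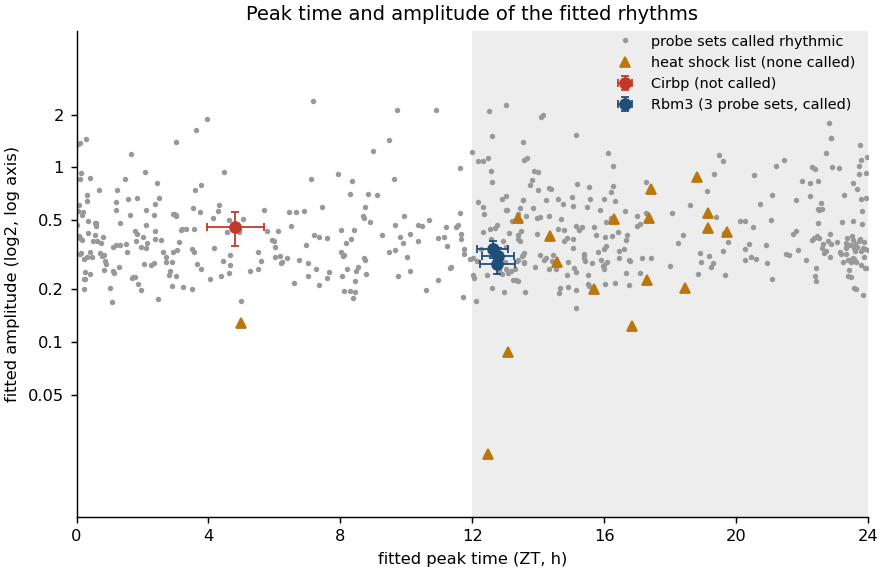
Fitted amplitude in log2 (vertical axis, logarithmic) against fitted peak time (horizontal axis, ZT in h) for the 540 probe sets called rhythmic (grey points), the 17 tested heat shock genes (triangles), Cirbp and the 3 Rbm3 probe sets (circles, bars are SE), with the dark phase in grey. Cirbp lies at ZT4.82 with an amplitude of 0.45 and Rbm3 between ZT12.6 and ZT12.8 with 0.28 to 0.34.

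Heat shock genes, the chaperones and co-chaperones controlled by heat shock factors, stood high on the arrays on which Cirbp was low. Of 20 listed genes 17 were tested, and 0 were called rhythmic by limma, against 4.54% of all 10966 tested genes. Of the 17, 6 had an unadjusted p under 0.05, as had 2866 of all 10966. Their median amplitude was 0.41, against 0.09 for all tested genes. At ZT14 16 of the 17 were higher than at ZT10, with a median log2 difference of 0.77, whereas 47.2% of all tested genes were higher, with a median difference of 0. Hsf2, one of the heat shock factors themselves, was the exception. At ZT22 16 of the 17 were lower than at ZT18, with a median difference of -0.36, as were 4832 of all 10966 tested genes. The highest array was ZT14 for 10 of them and ZT18 for 6, beside 18.2% and 13.5% of all tested genes. Hsph1, a large chaperone of the HSP110 class, had log2 signals of 9.09, 8.28, 8.22, 10.22, 9.80, 8.71 and 8.87 from ZT02 to ZT26 (adjusted p = 0.234, limma). The inducible chaperone Hspa1a was high on a single array, with 6.70 at ZT10, 7.98 at ZT14 and 6.68 at ZT18 (adjusted p = 0.252). All these values come from the same 7 pools as those of Cirbp, and genes of 1 array are not independent.

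**Figure D4:**
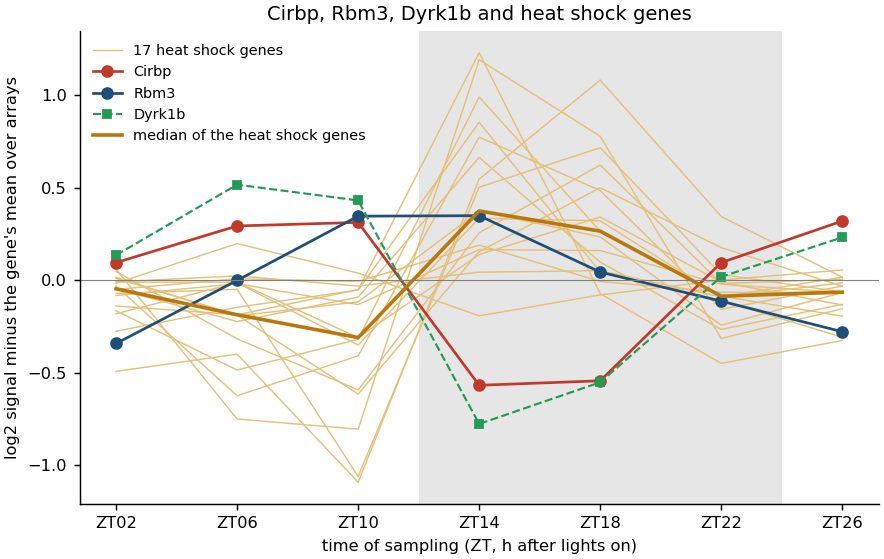
Log2 signal minus the mean of each gene over the 7 arrays (vertical axis) against the time of sampling (horizontal axis, ZT in h) for Cirbp, Rbm3 (probe set 10556113), Dyrk1b, 17 heat shock genes (thin lines) and their median (thick line), with the dark phase in grey. From ZT10 to ZT14 Cirbp differs by -0.88 and the heat shock genes by a median of 0.77, while Rbm3 differs by 0.003.

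Few of the other listed RNA-binding protein genes were called rhythmic, as was true of all tested genes. Each gene was judged by its probe set of highest mean. Of 27 listed genes of the RBM family other than Rbm3, 23 were tested and 0 were called (limma; 4 had an unadjusted p under 0.05), with a median amplitude of 0.07 and the largest, of Rbm33, at 0.33. Rbm25, a splicing regulator, has 4 tested probe sets, of which 1 of lower mean (10397081) was called, with an amplitude of 0.28, a peak at ZT16.0 and an adjusted p of 0.0408, and the one of highest mean was not (0.105). Rbm15b, which was not in the list and is named after its values were seen, was called with an adjusted p of 0.0319. Of genes with a cold shock domain, a different RNA-binding fold, 5 of 8 were tested and 0 were called (2 with an unadjusted p under 0.05). Among hnRNP and related proteins, which package and process pre-mRNA, 1 of 21 tested genes was called. This was Hnrnpl, a splicing regulator, with 9.29, 9.60, 9.54, 9.17, 8.83, 9.10 and 9.35 from ZT02 to ZT26 and an adjusted p of 0.0247 in limma. It was high at ZT06 and ZT10 and lowest at ZT18, with a fitted amplitude of 0.36 and a peak at ZT6.97. Of 16 tested SR splicing factors and their kinases 0 were called (limma; 6 with an unadjusted p under 0.05). Over all tested genes the share called was 4.54%, and 4.62% with any probe set of a gene counted. By that second count 4.35% of the RBM list and 4.76% of the hnRNP list were called, near the share of all genes. The lists do not hold every RNA-binding protein gene.

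A further group held genes reported to act on CIRBP, or whose products were reported to bind it. The kinase gene Dyrk1b is in it because its product has been reported to bind CIRBP in mouse germ cells. Dyrk1b was among the 8 genes with the profiles most like that of Cirbp, given below. The gene lists were chosen with earlier results of these data known, so this overlap is no separate result. Dyrk1b had log2 signals of 9.14, 9.52, 9.44, 8.23, 8.46, 9.03 and 9.24 from ZT02 to ZT26, with the same low arrays, ZT14 and ZT18. Its amplitude was 0.57 ± 0.12 (SE) and its peak ZT5.22, and like Cirbp it was not called (adjusted p = 0.0837, limma). The others of this group were Sp1, a transcription factor of GC-rich promoters, Tnpo1, a nuclear import receptor, Prmt1, an arginine methyltransferase, and Gsk3b, a kinase. Their amplitudes were 0.09, 0.16, 0.06 and 0.07, and their adjusted p were 0.186, 0.151, 0.588 and 0.574 in limma. Of the 5 genes of the group, Dyrk1b included, 0 were called, beside 4.54% of all tested genes. An unadjusted p under 0.05 (limma) was found for 3 of the 5.

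Of the genes whose mRNAs have been reported as bound by CIRBP or RBM3, 0 of 5 were called (limma; 1 with an unadjusted p under 0.05), beside 4.54% of all tested genes. Clock, the transcription factor that partners BMAL1, had an amplitude of 0.53 ± 0.13 (SE), a peak at ZT23.1 and an adjusted p of 0.109. Txn1 (thioredoxin), Rpa2 and Atr (DNA repair and its checkpoint) and Rtn3 (a reticulon of the endoplasmic reticulum) had amplitudes of 0.04, 0.06, 0.13 and 0.03 and adjusted p of 0.647, 0.622, 0.420 and 0.700. Of the receptors reported for extracellular CIRBP only Ly96, the TLR4 partner, passed the expression minimum (adjusted p = 0.529). Of the core clock genes 8 of 11 were called, against 4.54% of all tested genes. Among them Nr1d1 peaked at ZT7.18, Dbp at ZT10.9, Per2 at ZT15.1 and Arntl at ZT22.8, with amplitudes of 2.38, 2.13, 1.53 and 1.80, several times those of Cirbp and Rbm3.

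Likeness of profiles was measured as Pearson's r over the 7 arrays among 1973 tested probe sets whose highest array exceeded the lowest by over 1.5-fold. With 7 shared arrays and so many candidates high values are common, and r is given as a description. For Cirbp the closest were Ctdsp2, a phosphatase of the Pol II tail (r = 0.982), Rad50, of DNA break repair (0.980), Ppm1k, the phosphatase that activates branched-chain amino acid breakdown (0.979), Tcp11l2 (0.977), Fam172a (0.975), Rfc5, of the replication clamp loader (0.975), Tmem184a (0.973) and Dyrk1b (0.971). Of these 8, Ppm1k and Tcp11l2 were called rhythmic, beside 4.54% of all tested genes, a count that the choice by r also shapes. Tcp11l2 had log2 signals of 8.79, 8.94, 8.67, 7.24, 7.18, 8.44 and 8.89 from ZT02 to ZT26, an amplitude of 0.94 ± 0.13 (SE) and a peak at ZT4.48 (adjusted p = 0.0319, limma). It had the well at ZT14 and ZT18 that Cirbp had, with a larger depth. The most opposed were Ahsa2, a relative of the Hsp90 co-chaperone Ahsa1 (-0.969), G0s2, an inhibitor of triglyceride lipolysis (-0.969), Gtf2e1, of the general transcription factor TFIIE (-0.961), and Zmat3 (-0.946), none of them called. G0s2 had 8.38, 8.47, 8.48, 9.49, 9.41, 8.54 and 8.26 from ZT02 to ZT26, with ZT14 and ZT18 above all other arrays.

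For Rbm3 the closest profiles were those of P2ry2, a nucleotide receptor (r = 0.992), Chd7, a chromatin remodeller (0.991), Ciart, a repressor within the clock (0.988), Slc20a1, a phosphate transporter (0.987), Gnl3, the nucleolar protein nucleostemin (0.986), Apbb3 (0.986), Lipg, a lipase (0.986), and Trak2, an adaptor of mitochondrial transport (0.983). All 8 were called rhythmic, beside 4.54% of all tested genes, with fitted peaks from ZT12.0 to ZT13.0. These genes and the opposed ones below were chosen by r with a called profile. Their calls and peaks follow from that choice and are no separate result. Ciart shared the timing of Rbm3 but not its size, with 5.09, 6.68, 9.77, 9.61, 7.67, 6.81 and 5.35 from ZT02 to ZT26, a 25.6-fold range against 1.61-fold for Rbm3. The most opposed were Rnd1 (-0.992), Fga, the fibrinogen alpha chain (-0.986), Grk5, a receptor kinase (-0.985), and the transcription factor Atf5 (-0.979), all called, with peaks between ZT0.04 and ZT0.60. Fga had 10.30, 9.72, 9.18, 9.16, 9.83, 10.03 and 10.16 from ZT02 to ZT26. Above r = 0.95 there were 49 other probe sets for Rbm3 and 20 for Cirbp. Below r = -0.95 there were 29 and 3.

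**Figure D5:**
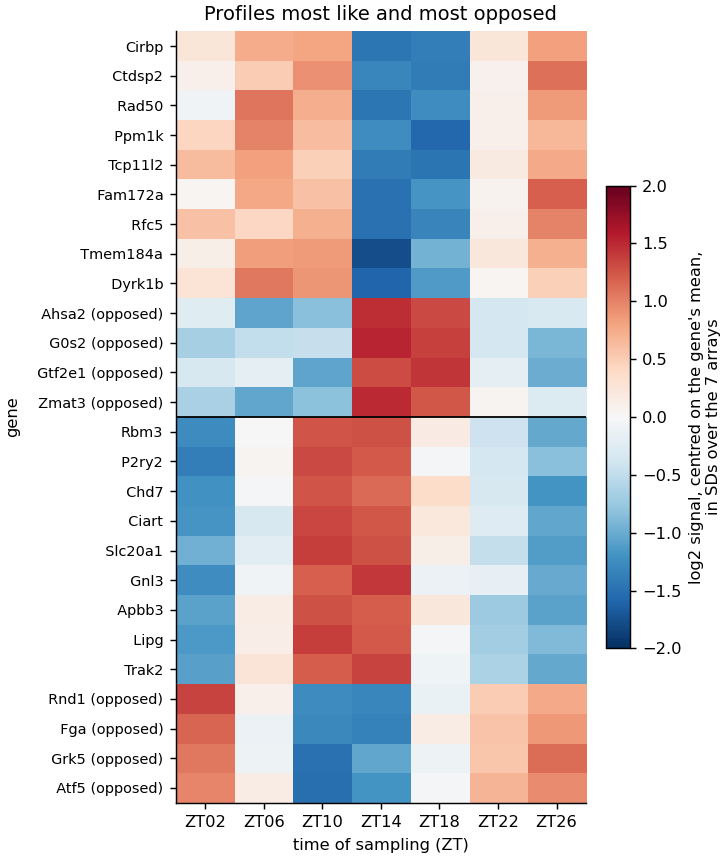
Log2 signal centred on the mean of each gene and divided by its SD over the 7 arrays (colour, from blue for low to red for high) at each time of sampling (horizontal axis), for Cirbp and Rbm3, each with the 8 most alike and 4 most opposed profiles below it (vertical axis). Cirbp and its most alike profiles are blue at ZT14 and ZT18, and Rbm3 and its most alike profiles are red at ZT10 and ZT14. The opposed profiles have the reverse colours there.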

How the data were processed

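Total RNA of 5 livers per time point was pooled and measured on 7 Mouse Gene 1.0 ST arrays. The values deposited by the authors are on the log2 scale. According to the notes of the submitters on processing, they were made with RMA in Affymetrix Expression Console 1.1.2637.26569, so that background, normalization between arrays and probe summary preceded deposit and shared scaling cannot be undone here. Units are the antilog of these values. Genes were named through the platform annotation, in which 21789 probe sets carry 1 symbol, 1621 several and 12146 none.

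With limma 3.58.1 in R 4.3.3, a 24-h cosine was fitted to the 12076 probe sets (10966 genes) with 1 symbol and a mean above 85 units, with 4 residual degrees of freedom, and tested on simulated data. Peak errors were derived from the coefficients. ZT02 and ZT26 shared a clock hour. A probe set of highest mean stood for a gene. Exact permutation tests ran over the order of the arrays, for the 4 probe sets, the Rbm3 mean and the difference between the genes. Named genes were all probe sets of Cirbp and Rbm3, the 8 most alike and 4 most opposed genes of each, up to 4 called members of each list by amplitude, and every tested reported partner and regulator; further markers and heat shock genes were named after their values were seen. The genes and gene lists were chosen with earlier results of these data known. The number of arrays, 1 per time point, limits the precision. Alternatives covered the filter, the scale, centring, drift, curve shape, test, probe set and single arrays. Chromatin sequencing of the study was not used here.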

Additional observations from a re-analysis of the deposited data

How the results depend on the processing

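The difference in course between Cirbp and Rbm3 was rerun only with the mean of the Rbm3 probe sets and with single arrays left out. It held in each of these, with p of 0.00238 to 0.0222 in the exact permutation test. The other settings below were not run on it. The call of Rbm3 (adjusted p = 0.0243) was lost with no filter on low values (0.0596), with a linear drift (0.0547), with ZT02 and ZT26 averaged (0.0658), on the natural scale (0.0540) and in Fisher's test for one period (0.196). It held with an intensity trend, centred arrays, a 12-h term and the mean of its probe sets. Leaving out single arrays gave 0.0231 to 0.0962 for Rbm3 and 0.0707 to 0.275 for Cirbp. The other Rbm3 probe sets also lost the call with a 12-h term (0.0547 and 0.0549). Cirbp was called in none of these fits. The count of rhythmic probe sets, 540, was 57 without the filter, 98 with drift, 93 with ZT02 and ZT26 averaged, 68 on the natural scale, 950 with centred arrays, 353 with a 12-h term, 0 in Fisher's test (2101 with an unadjusted p under 0.05) and 13 (without ZT02) to 312 (without ZT22) with single arrays left out. Fits with fewer arrays have fewer degrees of freedom, and the cause of the other changes was not tested. In the dark minus light comparison 0 to 1 probe sets were called, the 1 being Tcp11l2 without ZT22 (-1.61, adjusted p = 0.0203, limma). Cirbp has 1 probe set, so that an average over probe sets changes nothing. No paired analysis was possible because each group has 1 array.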
